A study of Caenorhabditis elegans with 10 samples.

Results

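The genes described here are those of the protein-coding biotype whose symbol starts with *rpl-* (proteins of the large ribosomal subunit) or *rps-* (proteins of the small subunit) in *C*. *elegans*. There were 76 such genes among 46739 at the L4 stage and 77 among 15355 at the L2 stage, with 185 and 152 transcripts respectively. In all, 75 genes were in both tables and 78 in either, 47 of them *rpl-* and 31 *rps-*. They lie on all 6 chromosomes, with 23 genes on I, 10 on II, 18 on III, 17 on IV, 8 on V and 2 on X.

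The cytosolic ribosome is built in the nucleolus from ribosomal RNA and one copy of nearly every ribosomal protein, so these genes are among the most highly expressed of growing animals and their products are needed in matched amounts. Their mRNAs are short, and several carry small nucleolar RNAs in their introns. In *C*. *elegans* a few of them (among these *rpl-3*, *rpl-7A* and *rpl-12*) are known to give unproductively spliced mRNAs that are removed by nonsense-mediated decay (NMD), the pathway that degrades mRNAs with an early stop codon.

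The study addressed *sftb-1*, the worm ortholog of the human splicing factor gene *SF3B1*. At the L4 stage (41 h at 20 °C, poly-A RNA) 2 lines with the K718E substitution, the independent alleles *cer3* and *cer7*, were each represented by 1 library beside WT siblings recovered from the same outcross. At the L2 stage (23 h at 20 °C, total RNA depleted of ribosomal RNA) there were 2 libraries each of N2 WT larvae, of *cer39* homozygotes, which carry Q552P, R643C and K718E together, and of *cer6* larvae. *cer6* is a deletion allele kept over a red fluorescent marker, and its homozygotes were selected as non-red progeny of heterozygous mothers, so they may hold maternal product. The paper reports small fractions of non-red recombinants and of red animals in the sorted *cer6* samples. According to the paper these homozygotes also stop developing as early larvae. WT and *cer6* L2 larvae were sorted by machine and *cer39* larvae were not, so an effect of sorting and one of the *cer39* allele cannot be told apart. Each library was made from a population of synchronized animals, and in such bulk samples a lower number of cells of a type and less RNA per cell cannot be told apart. With 2 libraries against 2, an exact two-sided permutation test cannot go below p = 0.333, so tests rest on fits across all genes, and their p-values measure only the spread between these libraries.

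At L4 a library held between 56996610 and 66563408 reads, and at L2 between 45313448 and 76420128. The level of *sftb-1* itself was 14652 and 13787 normalised reads in WT and 13710 and 15045 in K718E at L4. At L2 it was 6152 and 7222 in WT, 7333 and 6706 in *cer39* and 3229 and 3580 in *cer6*, a log2 difference of −0.97 (SE 0.129) for *cer6* against WT with a limma adjusted p of 0.00592. All 76 and 77 member genes passed the minimum mean of 10 normalised reads, as did 150 of the 185 L4 transcripts and 149 of the 152 L2 transcripts. Among the L4 transcripts, 23 were at 0 in every library.

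Ribosomal protein genes took a large part of the mRNA. At L4 they held 9.16% and 8.81% of the protein-coding reads in WT and 8.99% and 8.45% in K718E. The L4 groups overlapped. At L2 they held 14.8% and 14.1% in WT, 16.4% and 16.7% in *cer39*, and 16.8% and 14.2% in *cer6*. Both *cer39* libraries were thus above both WT libraries, while the *cer6* libraries spread from the WT level to the highest of all. The means were 14.5% ± 0.513 in WT, 16.6% ± 0.206 in *cer39* and 15.5% ± 1.84 in *cer6* (SD, n = 2), and no test was made of these shares. The share of all reads from ribosomal RNA genes, which depletion should have removed, was 24.06% and 20.5% in WT, 29.5% and 29.9% in *cer39* and 26.6% and 23.7% in *cer6*, and its part in the result was not tested.

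**Figure D1:**
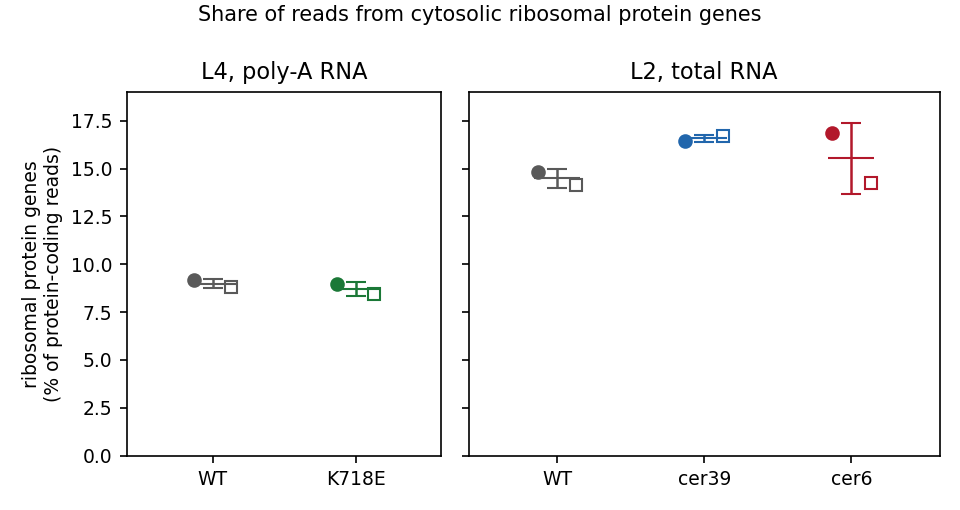
Percentage of protein-coding reads from cytosolic ribosomal protein genes in each library (filled circle replicate 1, open square replicate 2) with the group mean (bar) and SD (whisker, n = 2). Both *cer39* libraries (16.4% and 16.7%) lie above both WT libraries (14.8% and 14.1%), and the *cer6* libraries lie apart at 16.8% and 14.2%.

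Levels per kilobase of transcript, which allow genes to be compared within a table, were similar for most members. The median was 124603 normalised reads per kb at L4, and 71 of the 76 genes lay within 3-fold of it. At L2 the median was 134395, with 72 of 77 within 3-fold. Of the 100 protein-coding genes with the highest level per kb, 62 at L4 and 71 at L2 were ribosomal protein genes. The highest per kb at L4 was *rpl-2* (184392), whose product lines the peptidyl transferase centre where peptide bonds are made. At L2 it was *rpl-41.2* (330843), which encodes the smallest of the ribosomal proteins.

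A few members stood far below the rest. *rpl-42* was the lowest at L4, with 127 and 148 normalised reads in WT and 214 and 141 in K718E, and was found only in the L4 table. *rpl-24.2* was next, at 6725 per kb at L4 and 11145 per kb at L2. Unlike its partner *rpl-24.1*, which encodes the structural protein, *rpl-24.2* is most like the yeast Rlp24 and human RSL24D1 proteins, which sit on the immature large subunit and are exchanged for the structural protein during assembly. *rpl-37* had 18393 per kb at L4 and 19740 per kb at L2. *rpl-41.1* was the lowest at L2, at 11009 per kb. The L4 table lists *rpl-41.1* and *rpl-41.2* as pseudogenes, so the rule did not select them there. All 31 *rps-* genes lay within 3-fold of the small-subunit median at each stage.

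No ribosomal protein gene passed the threshold in K718E. The limma fit called 0 of 76 members (9 had an unadjusted p below 0.05), beside 63 of 15840 genes in all, or 0.398% of those tested. With the replicate number as a block, taken to mark a shared outcross, it called 625 genes and 0 members. On recovered reads edgeR called 0 members (0.360% of all genes). DESeq2 called 4 (*rpl-29*, *rpl-39*, *rps-15* and *rpl-27*, each lower in K718E), where it called 5.54% of all genes. The members' median log2 difference was −0.07 against −0.01 over all genes, and 66 members were lower and 10 higher than in WT. Both K718E libraries were below both WT libraries for 31 of 76 members, a relation that holds for 28.9% of all genes, and above for 1 (25.4% of all genes). The 95% interval of the difference stayed inside 1.5-fold for 75 of 76 members and inside 2-fold for all 76. *rpl-42*, the least abundant, was the exception, at log2 0.34 (SE 0.235, adjusted p = 0.429), and passed when the second K718E library was left out (log2 0.64, adjusted p = 0.0183), a fit that called 5173 genes.

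The low shift of the set was smaller than the distance between the WT libraries. Relative to the WT mean, the median member was at 0.06 and −0.06 (log2) in the WT libraries and at −0.05 and −0.09 in the K718E libraries. Without the first WT library the median difference was −0.01, and without the second it was −0.13.

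By role, no large-subunit member of the catalytic core or the 5S particle passed the threshold, and differences between these members were not tested. *rpl-3*, which reaches into that centre, had 228011 and 212580 normalised reads in WT and 221332 and 214465 in K718E, and the groups overlapped. *rpl-2* had 166212 and 152547 in WT and 162458 and 156043 in K718E, which also overlapped. *rpl-10*, the other member of that group, had 121338 and 112398 in WT and 108483 and 103798 in K718E, with no overlap (log2 −0.14, adjusted p = 0.417). *rpl-5*, which brings the 5S ribosomal RNA to the large subunit, differed by 0.01 (SE 0.0954), and *rpl-11.1*, of the same particle, by −0.19 (SE 0.0869, adjusted p = 0.262) with no overlap. *rpl-11.2*, also of that particle, differed by −0.01 (SE 0.0866). *rpl-12* of the stalk base, where elongation factors dock, differed by −0.02 (SE 0.0916).

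The lowest adjusted p-values belonged to *rpl-29*, *rpl-39* and *rps-15*. *rpl-29*, a short basic protein of the large subunit, had 41804 and 41169 normalised reads in WT and 33600 and 32497 in K718E. The libraries did not overlap, with a log2 difference of −0.33 (SE 0.0816, adjusted p = 0.127). *rpl-39*, which lines the tunnel through which the new peptide leaves, had 36576 and 34911 in WT and 30030 and 28585 in K718E, a log2 difference of −0.29 (SE 0.0837, adjusted p = 0.144). *rps-15* of the small subunit had 84214 and 78856 against 69033 and 66459 (log2 −0.27, adjusted p = 0.167). None of these passed the threshold of 0.05. The 2 genes outside the rule, *rpl-41.2* (77570 and 74347 in WT, 61462 and 58360 in K718E, log2 −0.34, adjusted p = 0.128) and *rpl-41.1* (3037 and 2808 in WT, 2200 and 2308 in K718E, log2 −0.37, adjusted p = 0.131), lay in the same range. With DESeq2 both passed (adjusted p = 0.00369 and 0.0173), and *rpl-41.1* passed when either K718E library was left out (adjusted p = 0.0112 and 0.000228).

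**Figure D2:**
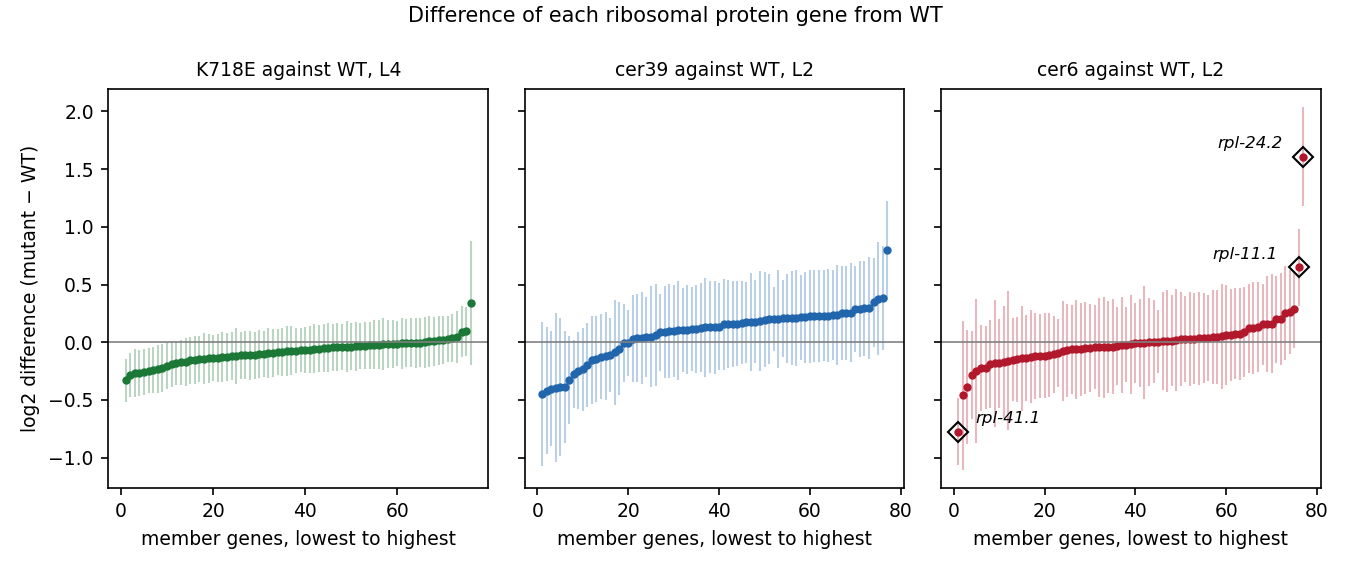
Log2 difference of each ribosomal protein gene from WT (points, ordered within each panel) with its 95% interval (lines) for K718E at L4 (76 genes), *cer39* at L2 and *cer6* at L2 (77 genes each). Diamonds mark the genes past an adjusted p of 0.05, which are 0 in K718E, 0 in *cer39* and 3 in *cer6*.

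The difference in K718E went with transcript length. Members shorter than 500 nt had a median log2 difference of −0.13, with 1 of 36 higher than in WT, and members of 500 to 1000 nt had −0.04, with 7 of 37 higher. Spearman's rho between difference and length was 0.72 over the 76 members. It was 0.31 over the 6767 other protein-coding genes with a mean of at least 1000, and those other genes had medians of −0.14 below 500 nt, −0.16 from 500 to 1000 nt and −0.10 from 1000 to 2000 nt. The genes share the same 4 libraries, so rho is a description and was given no p.

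**Figure D3:**
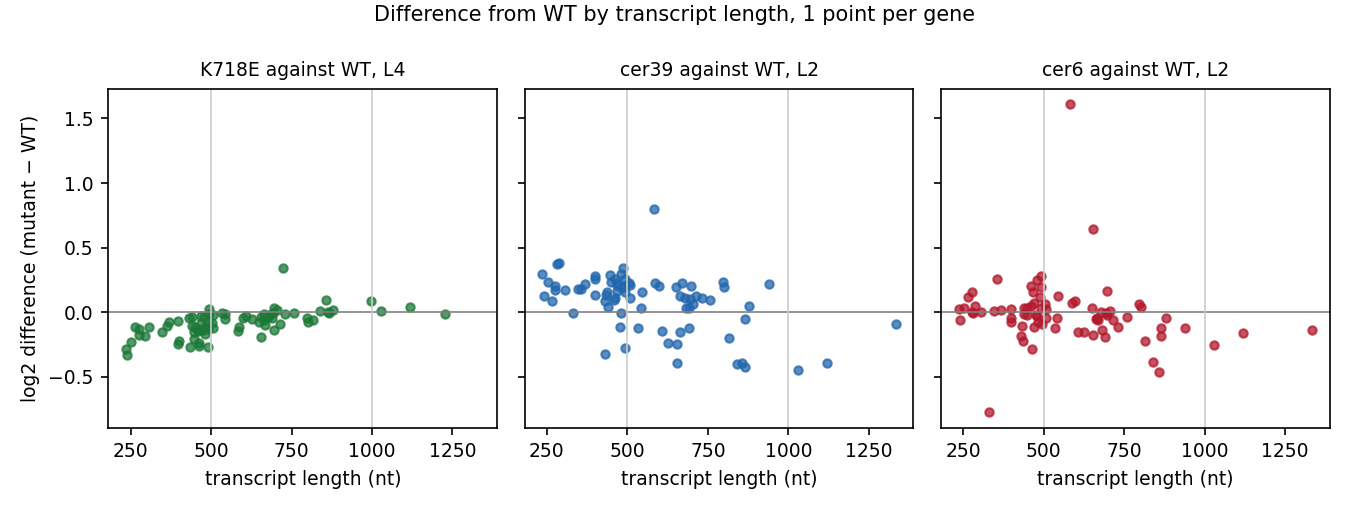
Log2 difference from WT (y axis) against transcript length in nucleotides (x axis), 1 point per ribosomal protein gene, in the 3 comparisons with WT; grey lines mark 500 and 1000 nt. Spearman's rho is 0.72 in K718E, −0.45 in *cer39* and −0.32 in *cer6*. Over the other protein-coding genes with a mean of at least 1000 it is 0.31, −0.42 and 0.006 in the same order.

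Cell type markers changed in K718E. The summed level of 8 body wall muscle markers was 456709 and 429054 in WT and 855840 and 776240 in K718E, with 4 of the 8 past the threshold. That of 5 pharynx markers was 19607 and 18650 in WT and 43946 and 40921 in K718E, with 3 of the 5 past it. The 15 germ line markers overlapped between the groups, at 238206 and 226336 in WT and 210833 and 230545 in K718E. The median log2 difference was 0.31 over 10 neuron markers (8 higher, 2 lower, 1 past the threshold). It was 0.19 over 7 hypodermis markers (5 higher, 2 lower) and 0.08 over 9 intestine markers (7 higher, 2 lower). All 29 sperm markers tested (symbols starting *msp-*) were higher, with a median of 0.14. In the last 3 lists 0 passed. Only *msp-32*, a sperm marker left out of the fit, was at 0. The part of the markers in the small shift of the members was not tested.

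In *cer39*, ribosomal protein genes were mostly higher than in WT, and none passed the threshold. The fit called 0 of 77 members (1 had an unadjusted p below 0.05), where it called 1074 of 15011 genes, or 7.15%. The median log2 difference of the members was 0.13 against 0.01 over all genes, and 57 members were higher and 20 lower. Both *cer39* libraries were above both WT libraries for 53 of 77 members (32.6% of all genes) and below for 14 (29.4% of all genes). Relative to the WT mean, the median member was at 0.16 and 0.13 in the *cer39* libraries, outside the range of 0.02 to −0.02 of the WT libraries. Intervals were wider than at L4, staying inside 1.5-fold for 41 of 77 members and inside 2-fold for 74. edgeR with TMM scaling (7.33% of all genes) and DESeq2 (17.1%) each called 1 member, *rpl-24.2*. Germ line markers were also lower in *cer39*, with a median log2 difference of −0.99 over 14 markers (13 lower, 2 past the threshold). The median was −0.42 over 6 hypodermis markers (5 lower, 0 past it), whose summed levels overlapped between the groups. Medians were −0.18 for body wall muscle, −0.18 for pharynx, 0.03 for intestine and 0.07 for neuron markers, with 0 past the threshold in each. The part of the markers in the level of the members was not tested.

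*rpl-24.2*, the assembly factor gene (chromosome I, 9669415 to 9670098, WBcel235), came closest. It had 3513 and 3183 normalised reads in WT and 5876 and 5750 in *cer39*. Both *cer39* libraries were higher by a wide margin, with a log2 difference of 0.80 (SE 0.172) and an adjusted p of 0.0533. The call depended on the fit, since p was 0.0464 with edgeR, 0.00304 with DESeq2 and 0.0477 when the *cer6* libraries were left out. The gene lies within an intron of *C03D6.1* on the opposite strand and shares no exon with it.

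The next members by adjusted p lay on both sides of WT. *rpl-25.1*, at the exit of the peptide tunnel, had 21374 and 23163 in WT and 19152 and 17603 in *cer39* (log2 −0.28, adjusted p = 0.191). *rps-12* of the small subunit had 56625 and 54260 against 70849 and 69993 (log2 0.35, adjusted p = 0.206). *rpl-38* had 56702 and 48326 against 70516 and 65971 (log2 0.38, adjusted p = 0.228). By role, the 3 genes of the 5S ribonucleoprotein had a median of −0.25 (range −0.45 to 0.11) and the 8 of the tunnel exit 0.13 (−0.33 to 0.30). The 4 of the decoding centre and mRNA entry had 0.19 (−0.11 to 0.22). The 3 of the catalytic core had −0.09 (−0.42 to 0.20) and the 2 of the stalks −0.04 (−0.12 to 0.03). None of these genes passed the threshold, and differences between roles were not tested.

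Length again went with the difference, in the opposite direction to K718E. Members shorter than 500 nt had a median log2 difference of 0.18 (33 of 38 higher), and those of 500 to 1000 nt 0.10 (24 of 36 higher). The 3 longer ones, *rpl-3*, *rpl-4* and *rpl-5*, had a median of −0.39, and for each of them the *cer39* and WT libraries overlapped. Spearman's rho was −0.45 over 77 members and −0.42 over 5483 other protein-coding genes. Those other genes had medians of 0.28 and 0.12 in the same 2 shorter classes, −0.05 from 1000 to 2000 nt and −0.24 from 2000 nt upwards.

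In *cer6* homozygotes, which carry the *sftb-1* deletion, 3 of 77 members passed, where the fit called 4142 of 15011 genes, or 27.6%, with 13.8% in each direction. The members' share was thus below that of all genes. Their median log2 difference was −0.02 against −0.01 over all genes, with 35 members higher and 42 lower. Both *cer6* libraries were above both WT libraries for 10 members (31.1% of all genes) and below for 15 (32.7% of all genes). The interval stayed inside 1.5-fold for 60 of 77 members. *cer6* was compared with the same WT libraries as *cer39*.

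The *cer6* libraries themselves disagreed on the set. The median member was at 0.09 above the WT mean in the first and at −0.12 in the second, and the median difference was −0.12 without the first *cer6* library and 0.09 without the second.

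The member with the largest difference was again *rpl-24.2*. It had 11979 and 8683 normalised reads in *cer6*, above the 3513 and 3183 of WT and the 5876 and 5750 of *cer39*. The 3 groups did not overlap. The log2 difference from WT was 1.61 (SE 0.172, 95% interval 1.18 to 2.04, adjusted p = 0.00343), a 3.05-fold rise, and it passed under each alternative run. Its partner *rpl-24.1*, which encodes the structural protein, had 78001 and 77731 in WT and 92516 and 78475 in *cer6* (log2 0.13, adjusted p = 0.585). *rpl-24.1* held 95.7% and 96.1% of the reads of the pair in WT, 93.6% and 93.9% in *cer39* and 88.5% and 90.04% in *cer6*.

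*rpl-11.1* rose as well. It is one of 2 genes for the protein that joins *rpl-5* and the 5S ribosomal RNA on the large subunit, is autosomal (chromosome V, 3585312 to 3586064) and is known for its use in the germ line, while *rpl-11.2* is X-linked. *rpl-11.1* had 12302 and 13046 normalised reads in WT and 21793 and 18094 in *cer6*. The *cer6* libraries were above all others, with a log2 difference of 0.65 (SE 0.134, adjusted p = 0.0206). The call was lost without the first *cer6* library (log2 0.51, adjusted p = 0.078), without the first WT library (adjusted p = 0.0606), and without either or both *cer39* libraries (adjusted p = 0.0574, 0.057 and 0.0584).

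*rpl-11.2* did not pass, with 64348 and 63040 in WT and 63365 and 54988 in *cer6* (log2 −0.11, adjusted p = 0.618). *rpl-11.1* took 16.0% and 17.1% of the pair's reads in WT, 13.7% and 13.1% in *cer39* and 25.6% and 24.8% in *cer6*. At L4, in a separate table, it took 71.2% and 71.2% in WT and 67.8% and 69.3% in K718E. The summed level of the 14 germ line markers found at L2 was 16888 and 25010 in WT, 11497 and 9312 in *cer39* and 14615 and 17247 in *cer6*. Gene by gene, 12 of the 14 were lower than WT in *cer6* (median log2 −0.64, 4 past the threshold lower and 1 higher) and 13 in *cer39*. None of these markers was at 0, and their part in the level of *rpl-11.1* was not tested.

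*rpl-41.1* fell. It had 4374 and 4097 normalised reads in WT, 4237 and 4194 in *cer39* and 2671 and 2292 in *cer6*. *cer6* was below both other groups, with a log2 difference from WT of −0.77 (SE 0.116, adjusted p = 0.0082) that passed under each alternative run. *rpl-41.2*, its more abundant partner on chromosome I, had 90911 and 77563 in WT and 95334 and 73714 in *cer6* (log2 −0.00, adjusted p = 0.994). Both genes are named for the protein L41, and reads of such close copies may have been divided between them with error.

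**Figure D4:**
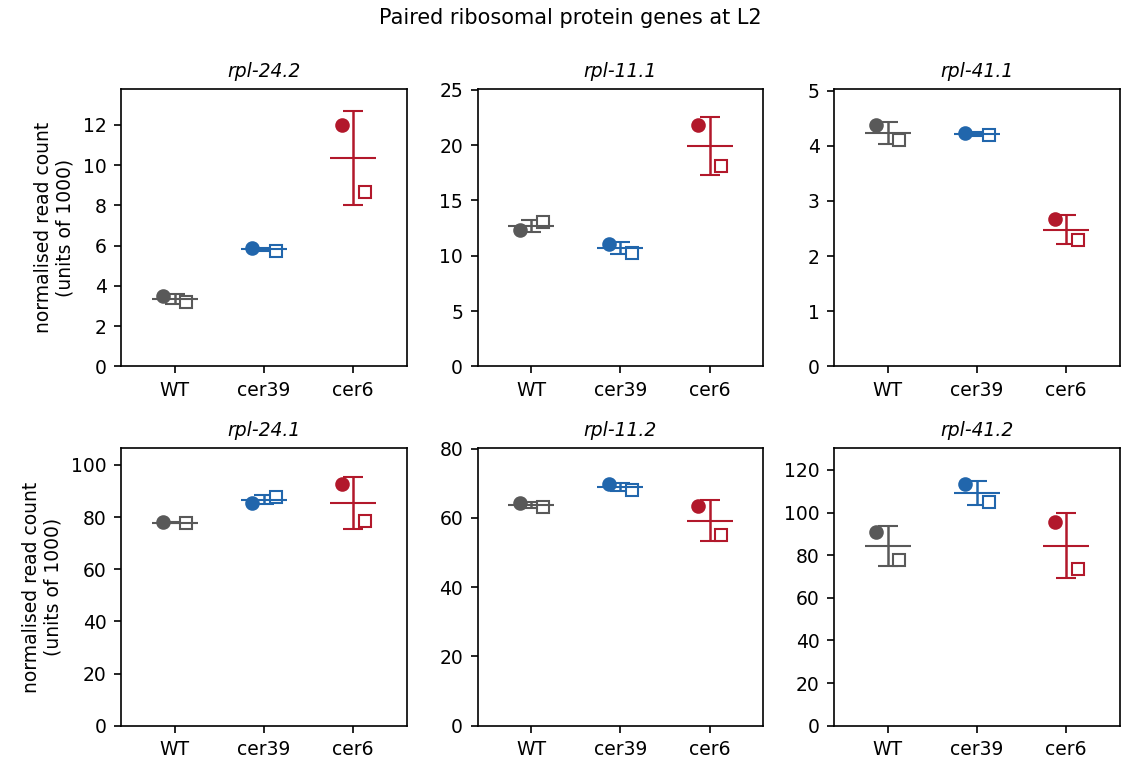
Normalised read counts in units of 1000 (y axis, from 0) of the 3 genes past the threshold in *cer6* (top) and of the partner gene of each (bottom) in the L2 libraries (filled circle replicate 1, open square replicate 2), with group mean and SD (n = 2). *rpl-24.2* and *rpl-11.1* are highest in *cer6* and *rpl-41.1* lowest, while the partner genes did not pass in *cer6* (adjusted p = 0.585, 0.618 and 0.994).

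The pair *rpl-25.1* and *rpl-25.2* gave no call. *rpl-25.1* held 48.1% and 51.6% of its pair with *rpl-25.2* in WT, 42.0% and 41.09% in *cer39*, and 42.1% and 44.6% in *cer6*. *rpl-25.2* itself had 23084 and 21700 in WT and 29588 and 25100 in *cer6* (log2 0.28, adjusted p = 0.173).

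The fit set *cer6* directly against *cer39* and called 3 of 77 members, where it called 19.6% of all genes, 9.11% higher and 10.5% lower in *cer6*. These were *rpl-11.1* (log2 0.90, SE 0.134, adjusted p = 0.013) and *rpl-24.2* (0.81, SE 0.172, adjusted p = 0.0299), higher in *cer6*, and *rpl-41.1* (−0.77, SE 0.116, adjusted p = 0.0133), lower in *cer6*. None of the 3 passed once either *cer39* library was left out, when adjusted p ran from 0.0911 to 0.163. Without the first *cer6* library *rpl-11.1* and *rpl-24.2* did not pass (adjusted p = 0.056 and 0.0771), and without the second *rpl-41.1* did not (adjusted p = 0.0678). Sorting differed between these groups.

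The 2 libraries of a group stood apart in a small set of members at L2, in opposite directions in WT and *cer39*. These were *rpl-7A*, *rpl-5*, *rpl-4*, *rpl-2*, *rpl-18* and *rps-4*, chosen after their values were seen and therefore not tested. The next, *rpl-31*, was at 0.30 in WT and −0.15 in *cer39* (log2, second over first library), and *rpl-3*, the longest member, at 0.10 and −0.09. *rpl-7A*, a large-subunit protein whose gene overlaps snoRNA genes, had 63804 and 96142 normalised reads in WT, 69409 and 51213 in *cer39* and 54526 and 59628 in *cer6*. The second library was higher than the first in WT by a log2 of 0.32 (*rps-4*) to 0.59 (*rpl-7A*), lower in *cer39* by 0.28 to 0.44, and higher in *cer6* by 0.13 to 0.21. Residual spread is computed from these same library differences, so a high value for these genes followed from how they were chosen. Among members it reached an SD of 0.31 (log2). The median SD was 0.11 for members and 0.19 for other protein-coding genes with a mean of at least 10000.

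Markers of several tissues were higher or lower in the same libraries. The sum of 8 body wall muscle markers was 234501 and 417971 in WT, 311361 and 219981 in *cer39* and 228833 and 376506 in *cer6*, so it too was higher in the second library of WT and *cer6* and lower in that of *cer39*. The sum of 5 pharynx markers was 23373 and 57221, 34557 and 24081, and 15227 and 20174 in the same order. The sum of 7 intestine markers was 171390 and 264191, 227506 and 161332, and 185492 and 245044, and that of the germ line markers given above followed the same pattern. The sum of 6 hypodermis markers went the other way in WT (106451 and 78810) and *cer39* (52875 and 83457), and was 84706 and 137837 in *cer6*. That of 10 neuron markers was 54443 and 53143 in WT, 57722 and 53941 in *cer39* and 71247 and 70439 in *cer6*. The neuron sum was thus slightly lower in the second library of each group. All of these markers were detected, and their part in the spread of the ribosomal protein genes was not tested.

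**Figure D5:**
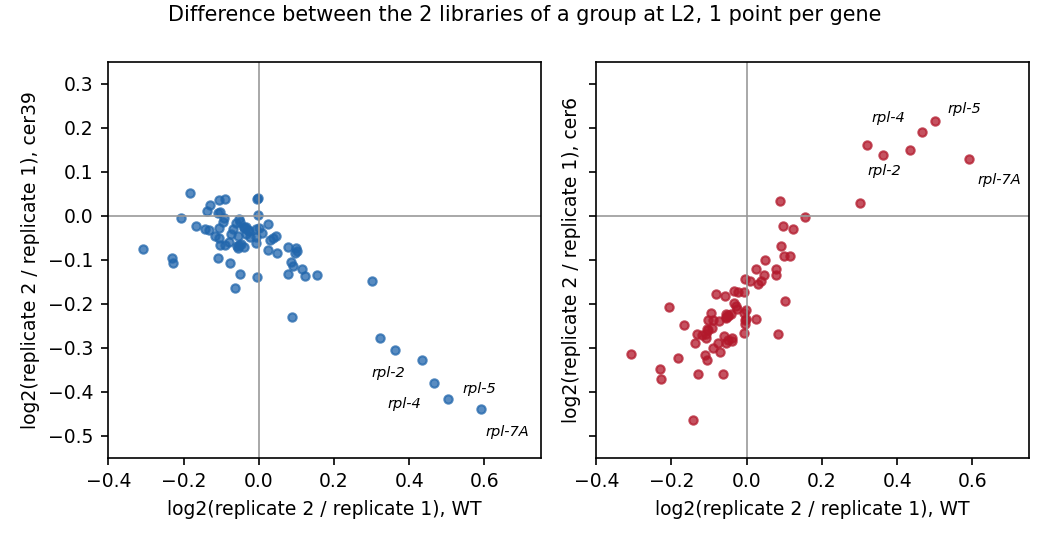
Log2 ratio of the second to the first library of a group for each ribosomal protein gene at L2 (1 point per gene, n = 77), with WT on the x axis and *cer39* (left) or *cer6* (right) on the y axis. The 4 labelled genes lie at 0.43 to 0.59 in WT, −0.33 to −0.44 in *cer39* and 0.13 to 0.21 in *cer6*.

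Members were also split by whether they overlap a gene for a snoRNA, a small guide of RNA modification. The 13 members that overlap a snoRNA gene had a median log2 difference of −0.02 in K718E, 0.11 in *cer39* and −0.04 in *cer6*, and the other members had −0.08, 0.15 and −0.01.

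Since SFTB-1 acts in splicing, the split of a gene's reads between its transcripts was followed apart from the gene sums. Transcripts of a gene share most of their sequence and the quantifier divides their reads, so values of single transcripts are uncertain. In K718E the fit called 0 of 150 member transcripts (17 had an unadjusted p below 0.05), where it called 0.00888% of all transcripts. edgeR called 0 members (0.00% of all transcripts) and DESeq2 13 (4.02% of all). In the share of a transcript in its gene it called 0 of 115, against 0.00% of all. The lowest p was that of *rps-22* F53A3.3a.4, listed at 335 and 1059 normalised reads in WT and at 0 in both K718E libraries (adjusted p = 0.0892), with WT libraries far apart.

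In *cer39* the fit called 0 of 149 member transcripts (9 had an unadjusted p below 0.05), where it called 0.943% of all. edgeR called 0 members (0.140% of all transcripts) and DESeq2 5 (12.4% of all). In transcript share it called 0 of 115 (2 had an unadjusted p below 0.05), against 0.0164% of all. The lowest adjusted p among the transcripts was that of *rpl-30* Y106G6H.3c.1. Its annotated first exon is 156 nt long and that of the main form, Y106G6H.3a.1, is 34 nt, so it keeps part of the first intron (chromosome I, exon 1 from 10436254 to 10436409). It had 363 and 345 normalised reads in WT and 165 and 169 in *cer39* (log2 −1.08, adjusted p = 0.0838). In yeast the L30 protein binds its own unspliced mRNA.

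In *cer6* 10 of 149 member transcripts passed, 3 higher and 7 lower, where the fit called 13.99% of all transcripts, 6.98% higher and 7.01% lower. The higher ones were the transcripts of *rpl-24.2* and *rpl-11.1*, each the only form listed for its gene, and *rpl-19* C09D4.5.3 (1011 and 1025 in WT, 1628 and 1465 in *cer6*, log2 0.60, adjusted p = 0.0341). The lower ones included the only form of *rpl-41.1* and 6 minor forms of genes whose sums did not pass. Of the 10, only that of *rpl-24.2* passed whichever of the 6 libraries was left out, and between 1 and 3 member transcripts passed in those fits.

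The minor forms that fell were a small part of their genes. *rpl-30* Y106G6H.3c.1 had 152 and 117 normalised reads in *cer6* against 363 and 345 in WT (log2 −1.40, adjusted p = 0.0183), or 0.289% of the gene on average against 0.730%. *rpl-12* JC8.3c.2 had 881 and 1060 in WT, 553 and 649 in *cer39* and 485 and 474 in *cer6* (log2 −1.01 for *cer6*, adjusted p = 0.0217). Both mutants were below WT in each case. *rpl-26* F28C6.7b, a tunnel exit protein, had 579 and 605 in WT, 545 and 561 in *cer39* and 368 and 338 in *cer6* (log2 −0.75, adjusted p = 0.0282). *rps-22* F53A3.3b had 139 and 152 against 62.6 and 46.3 in *cer6* (log2 −1.41, adjusted p = 0.032).

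*rpl-31* W09C5.6b.5, a minor form of another tunnel exit protein, lay on opposite sides of WT in the L2 mutants. It had 1212 and 1275 normalised reads in WT, 1904 and 2405 in *cer39* and 651 and 383 in *cer6*, with no overlap between the 3 groups. The log2 difference from WT was 0.78 in *cer39* (adjusted p = 0.214) and −1.31 in *cer6* (adjusted p = 0.0447). *cer6* was below *cer39* by a log2 of −2.10 (SE 0.284, adjusted p = 0.0278), a call that was lost without any one library of either mutant. It made up 3.27% and 2.79% of the gene in WT, 5.51% and 7.72% in *cer39* and 1.81% and 1.05% in *cer6*, and was one of 3 member transcripts called between the mutants, where 7.63% of all transcripts were.

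In the share of a transcript in its gene no member passed in *cer6* (0 of 115, with 1 at an unadjusted p below 0.05), where the fit called 0.205% of all. The lowest p was that of *rpl-35* ZK652.4.1, the main form of a tunnel exit protein. It made up 89.5% and 89.0% of the gene in WT, 98.8% and 95.6% in *cer39* and 97.2% and 98.0% in *cer6*. Both mutants were above WT, with adjusted p of 0.411 and 0.299.

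Forms that the WBcel235 annotation gives as non-coding took unequal parts of their genes. *rpl-3* F13B10.2b had 598 and 751 normalised reads in WT, 528 and 535 in *cer39* and 454 and 504 in *cer6*, so both mutants were below WT (log2 −0.33 and −0.49, adjusted p = 0.32 and 0.124). At L4 it had 1008 and 839 in WT and 979 and 920 in K718E, and the groups overlapped. *rpl-12* JC8.3b, found only in the L4 table, had 264 and 827 in WT and 687 and 630 in K718E (adjusted p = 0.702). *rpl-30* Y106G6H.3b was assigned 23.2% and 24.6% of its gene in WT and 25.5% and 22.6% in K718E at L4, and at L2 9.90% and 11.7% in WT, 10.6% and 10.05% in *cer39* and 13.96% and 9.74% in *cer6*. The annotated first exon of Y106G6H.3b is 2 nt long, and its other exons lie within those of the coding form Y106G6H.3a.1. Most of its reads cannot be told from those of the coding form, so these percentages do not measure non-coding RNA. *rpl-13* C32E8.2b made up 4.25% and 4.41% of its gene in WT and 4.19% and 4.12% in K718E at L4, and between 1.56% and 1.73% in the L2 libraries. None of these passed in a comparison with WT.

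The deposited splicing tables of the L2 mutants listed 1 event in a ribosomal protein gene, a retained intron (RI) of *rpl-12* on chromosome IV (minus strand, 13239934 to 13240024, WBcel235). It is the only member event among the 381 listed for *cer39* and the 493 listed for *cer6*. The 91-nt intron is that of JC8.3b, a form annotated as non-coding whose second exon runs further into the intron than that of the coding form JC8.3a.1. The inclusion level is therefore a ratio between an unspliced form and JC8.3b, not a share of all *rpl-12* mRNA.

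The inclusion level of this intron, from reads of each form (inclusion reads cover the intron body as well as its junctions) scaled by an effective length of 166 nt for inclusion and 75 nt for splicing, was 27.5% and 20.9% in WT, 35.1% and 32.2% in *cer39* and 47.1% and 35.4% in *cer6*. Every mutant library was above every WT library. The means were 24.22% ± 4.64 in WT, 33.7% ± 2.05 in *cer39* and 41.23% ± 8.30 in *cer6* (SD, n = 2). The reads behind them were 204 and 153 for inclusion and 243 and 261 for the spliced form in WT, 206 and 202 against 172 and 192 in *cer39*, and 266 and 132 against 135 and 109 in *cer6*. The tables list only events past a threshold on these libraries, so no test was made of this difference. The gene sum of *rpl-12* was 91058 and 93487 normalised reads in WT, 96000 and 92668 in *cer39* and 88329 and 79682 in *cer6*, with adjusted p of 0.908 and 0.544.

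Other genes of the ribosome, its assembly and its use were followed as lists. Of the 6 ribosomal proteins named outside the rule (*rla-0*, *rla-1*, *rla-2*, *rack-1*, *ubl-1* and *ubq-2*) 0 passed in any comparison with WT. *rla-0*, the base of the stalk, had 155879 and 182636 in WT, 135990 and 119137 in *cer39* and 139438 and 158015 in *cer6* (log2 −0.41 and −0.18, adjusted p = 0.229 and 0.524).

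Of 30 ribosome assembly factors tested, 0 passed in K718E, 1 rose in *cer39* (7.15% of all genes passed), and 4 rose and 6 fell in *cer6* (13.8% in each direction over all genes). *lpd-6*, a nucleolar factor of large-subunit assembly, had 2536 and 2674 in WT, 4098 and 3797 in *cer39* and 5112 and 4658 in *cer6*, a rise in both mutants (log2 0.60, adjusted p = 0.0362, and 0.91, adjusted p = 0.00436). *mtr-4*, the helicase of the nuclear exosome that trims ribosomal RNA precursors, had 4462 and 4559 in WT and 9477 and 8263 in *cer6* (log2 0.97, adjusted p = 0.00405). *exos-1* and *exos-4.1*, subunits of the exosome itself, fell in *cer6* (log2 −0.90, adjusted p = 0.00582, and −0.88, adjusted p = 0.00602).

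Of 31 translation factors at L2, 0 passed in *cer39* and 7 fell in *cer6*, with a median of −0.25 (13.8% of all genes fell in *cer6*, and 7.15% passed in *cer39*). *ife-2*, a cap-binding protein, had 2636 and 2791 in WT and 1686 and 1653 in *cer6* (log2 −0.70, adjusted p = 0.00672), and *eif-3.D* and *eif-3.K* of initiation factor 3 fell by log2 of 0.61 and 0.51 (adjusted p = 0.0132 and 0.015). Of 13 growth control genes, 1 fell in *cer39* (*daf-15*, log2 −0.53, adjusted p = 0.0492) and 3 in *cer6*, beside the same shares of all genes. *larp-1*, whose human counterpart binds the mRNAs of ribosomal proteins, fell in *cer6* from 17845 and 20253 to 10214 and 10800 (log2 −0.86, adjusted p = 0.00988). *rsks-1*, the worm S6 kinase, fell from 6512 and 6486 to 4653 and 4925 (log2 −0.44, adjusted p = 0.0262). *rps-6*, whose protein is the substrate of that kinase in other animals, had 67830 and 75545 in WT and 61602 and 61441 in *cer6* (log2 −0.22, adjusted p = 0.317). Among 9 NMD genes *smg-1* fell in *cer39* (log2 −0.63, adjusted p = 0.0421) and *smg-7* rose in *cer6* (log2 0.49, adjusted p = 0.0296), so 1 of 9 passed in each, where 7.15% and 27.6% of all genes did.

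The mitochondrial ribosome, built from nuclear genes of another set, was set beside it. Of its 66 genes 56 fell and 0 rose in *cer6*, with a median log2 difference of −0.65, where 13.8% of all genes fell and 1 of 77 cytosolic genes did. *mrps-34* had 1656 and 1539 in WT, 1197 and 1189 in *cer39* and 782 and 796 in *cer6* (log2 −1.02 for *cer6*, adjusted p = 0.00315). In *cer39* 0 of 66 passed (median −0.04), and in K718E 0 of 66 passed, with 64 lower than WT and a median of −0.19.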

How the data were processed

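RNA was sequenced from L4 (4 libraries) and L2 (6 libraries) populations. Per the methods, the authors aligned reads to WBcel235 with STAR, quantified transcripts with RSEM and normalised with DESeq2; versions are not given in the sources used here, and values as deposited are this normalised signal per transcript. All values were whole reads within 0.1 once multiplied by 1 factor per library. Each stage has its own table, so levels were not compared across stages. The tables of the authors' own fold changes and p-values were not used, and their splicing tables served only for the reads on the *rpl-12* intron and its junctions. At L2, 1 row was left out because its cells were shifted.

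Transcripts were summed to genes. Features averaging 10 or more were tested with limma 3.58.1 (trend) in R 4.3.3 on log2(value + 1), which understates changes of low features, with Benjamini-Hochberg adjustment over all features and a threshold of 0.05. K718E was fitted with its WT siblings and the 3 L2 groups together. Transcript share was tested as log2((transcript + 1)/(rest + 1)). edgeR 4.0.16 and DESeq2 1.42.0 were run on the recovered reads as alternatives, beside other pseudocounts (0.5 and 5), a mean of at least 50, no filter, other scalings, blocks by replicate number and leaving out each library. The fits were checked on simulated data. Members are named by the symbol rule; named genes are those past the threshold, the pairs, the extremes of level and, of each list, up to 4 with the smallest adjusted p. The members and lists were chosen with earlier results of these data known. The L4 replicate number was taken to mark a shared outcross, though the WT sample titles give only the number. Same-numbered L4 libraries deviated from their group means with r = −0.10 over 15840 genes and r = −0.54 over the 76 members.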

Additional observations from a re-analysis of the deposited data

Results flagged for a closer look

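Members for which *cer6* and *cer39* differed in a direct test, the L2 mutants being compared within 1 fit, were *rpl-11.1* (log2 0.8963, *cer6* higher), *rpl-24.2* (0.811, *cer6* higher), *rpl-41.1* (−0.7685, *cer6* lower) and the transcript W09C5.6b.5 of *rpl-31* (−2.097, *cer6* lower). Each was seen in both *cer6* libraries against both *cer39* libraries. *cer39* larvae were not sorted and *cer6* larvae were, so allele and sorting cannot be told apart. No group had 4 libraries, so single libraries were not screened.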

How the results depend on the processing

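Of 1054 values of named genes under the alternatives, 1030 stayed on their side of the threshold, 14 lost a call and 10 gained one. In 44 the sign changed, for 21 differences that had not passed, and no called value changed sign. For K718E, member genes called went from 0 to 4 with DESeq2 and between 0 and 1 when a library was left out, and member transcripts from 0 to 13 with DESeq2. For *cer39*, member genes called went from 0 to 1 with edgeR's TMM, with DESeq2, with only the 4 libraries compared, and between 0 and 1 when a library was left out, and member transcripts from 0 to 5 with DESeq2. The median member difference in *cer39* was 0.2554 when scaled to protein-coding totals and 0.1747 with TMM, against 0.132. For *cer6*, 10 member transcripts became 2 with only the 4 libraries compared and 1 to 3 when a library was left out. Between *cer6* and *cer39*, 3 member genes became 0 to 3 when a library was left out, and 3 member transcripts became 13 with DESeq2 (19.4% of all transcripts) and 0 to 3 when a library was left out. Scaling to protein-coding totals moved the median of all genes to 0.13 in *cer39* and 0.12 in *cer6*, and turned the split of called genes from 618 higher and 456 lower to 732 and 306 in *cer39*, and from 2067 and 2075 to 2354 and 1415 in *cer6*. The cause of these changes was not tested.

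With the replicate number as a block, 625 genes were called in K718E against 63, and members stayed at 0. With the L4 numbers crossed, 217 genes and 0 members were called. The L2 numbers share only a number. Under the block the member transcripts called were 5 in *cer6* and 0 between *cer6* and *cer39*. The median member difference in *cer6* was positive when scaled to protein-coding totals (0.1124), with TMM (0.0232) and without the second *cer6* library (0.0874), against −0.02. The difference of *cer6* from WT in the members' share of protein-coding reads turned from positive to negative without the first *cer6* library, and that of K718E from negative to positive without the second K718E library.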
